A study of Homo sapiens with 9 samples.

Results

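HMGCS1, MVD, IDI1, FDPS, FDFT1, SQLE, LSS and DHCR7 encode enzymes of cholesterol synthesis. They are 8 of the 31033 gene names on the arrays of this series, and 12 of its 50238 probes carry their names. They were chosen by their log2 differences in the 3 comparisons of these arrays, so their levels and differences are given below as a description, and counts of those past a threshold are printed beside the share of all genes with nothing read from them. Cholesterol is built in the cytoplasm and endoplasmic reticulum from acetyl-CoA, through mevalonate and isoprenoid diphosphates to squalene, which is closed into lanosterol and trimmed to cholesterol. The genes of the route are switched on together by the transcription factors SREBP-1 and SREBP-2 (genes SREBF1 and SREBF2), which are held in the endoplasmic reticulum while sterols are plentiful. Proliferating epithelial and tumor cells draw on the route for membranes and for the farnesyl groups that lamins and other proteins carry.

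The cells were DLD1, a human colorectal cancer cell line with a near-diploid karyotype, grown in medium with fetal bovine serum. RNA of 9 cultures was hybridized to 9 single-color Agilent arrays: 3 from untreated cells (Control), 3 after an siRNA against Lamin A/C (Lamin A/C Kd) and 3 after an siRNA against Lamin B2 (Lamin B2 Kd), described by the submitters as biological replicates. Both siRNAs were used at 100 nM for 48 h. The siRNA was delivered with a lipid reagent in reduced-serum medium, and complete growth medium was given after its uptake, within the 48 h. No array of cells given a control siRNA was analysed here. Depletion of a lamin and the transfection itself therefore cannot be told apart in a comparison with Control. The comparison of the 2 knockdowns sets transfected cells against transfected cells. RNA came from whole cultures, where a lower level in each cell and fewer cells with the transcript cannot be told apart.

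Each value below is the log2 intensity of a probe minus the median log2 intensity of its array, so that 0 is the middle of the array and a difference of 1 is a 2-fold change. Differences are followed by their standard error (SE) from a linear model over all 9 arrays. The software marked 65.6 to 68.7% of spots as well above background on the Control and Lamin A/C Kd arrays, and 66.6, 74.1 and 72.8% on the Lamin B2 Kd arrays. The part of this share in the results was not tested. No spot was saturated. The third Lamin B2 Kd array was on the second slide, alone, and the other 8 shared the first, so comparisons of the 8 genes with Lamin B2 Kd are also given without it, as are those named below for other genes whose call changed. LMNA, which encodes Lamin A/C, fell to 7.04% of Control in Lamin A/C Kd (log2 difference -3.83, SE 0.22), and LMNB2 fell to 20.0% of Control in Lamin B2 Kd (-2.32, SE 0.14). On the third Lamin B2 Kd array LMNA was at 7.97, against 8.83 on both other Lamin B2 Kd arrays. In Lamin A/C Kd LMNB2 was at 77.8% of Control (-0.36, SE 0.14; limma adjusted p = 0.155). Of 9 epithelial marker genes, 8 were well above background on all 9 arrays, EPCAM and the keratins KRT8, KRT18 and KRT19 among them. Of 8 markers of leukocytes, endothelium and fibroblasts, CD3E, CD14 and PECAM1 were well above background on all 9 arrays, DCN on 8, and PTPRC, CDH5, COL1A1 and COL1A2 on 2 each. CD14, the brightest of them, averaged 1.33 in Control and 1.43 in either knockdown, and the part of such markers in the results was not tested.

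The sequence just before the start of each gene is shown because genes that SREBPs act on are known for CCAAT and GC boxes near the start, where the factors NF-Y and Sp1 bind. RefSeq promoter windows of GRCh38.p14, from 250 bases before to 50 bases after a start, were available for 6 of the genes, with 10 windows in all. For each gene the stretch from 180 to 41 bases before the start is printed, 5′ to 3′ on the strand of the gene, for the window that held the most CCAAT matches. Capitals mark CCAAT on either strand, which reads ATTGG on the opposite one. HMGCS1 lies on the minus strand at chr5:43313453-43313592, MVD on the minus strand at chr16:88663132-88663271 and IDI1 on the minus strand at chr10:1048927-1049066. FDPS lies on the plus strand at chr1:155308686-155308825, LSS on the minus strand at chr21:46228815-46228954 and DHCR7 on the minus strand at chr11:71448434-71448573.
HMGCS1: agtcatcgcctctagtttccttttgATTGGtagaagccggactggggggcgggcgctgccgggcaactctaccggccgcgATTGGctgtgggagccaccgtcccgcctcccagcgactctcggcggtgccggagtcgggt
MVD: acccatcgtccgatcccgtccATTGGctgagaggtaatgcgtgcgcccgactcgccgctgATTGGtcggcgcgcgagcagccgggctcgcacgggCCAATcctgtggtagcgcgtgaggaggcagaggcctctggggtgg
IDI1: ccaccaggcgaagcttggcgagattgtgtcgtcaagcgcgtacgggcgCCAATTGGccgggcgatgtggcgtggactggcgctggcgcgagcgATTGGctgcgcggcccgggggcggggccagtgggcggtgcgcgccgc
FDPS: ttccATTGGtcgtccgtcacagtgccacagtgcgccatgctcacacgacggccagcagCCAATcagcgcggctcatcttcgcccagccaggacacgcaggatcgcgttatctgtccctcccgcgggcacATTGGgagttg
LSS: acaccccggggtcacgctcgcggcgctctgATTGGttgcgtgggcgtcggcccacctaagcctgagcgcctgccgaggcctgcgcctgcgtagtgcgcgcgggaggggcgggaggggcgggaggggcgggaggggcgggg
DHCR7: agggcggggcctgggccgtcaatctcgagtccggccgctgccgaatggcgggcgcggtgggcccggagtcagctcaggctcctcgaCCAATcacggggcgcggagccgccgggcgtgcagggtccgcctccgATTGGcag

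Every gene of the 6 had CCAAT on at least 1 strand in at least 1 window, as did 39.7% of the 27305 genes of the reference. MVD, IDI1 and FDPS had 3 matches in the window shown. The IDI1 stretch counts CCAATTGG as 2 overlapping matches, 1 on each strand. Over all 35116 promoter windows of the reference, 34.6% held CCAAT on either strand, beside 7 of the 10 windows of these genes. The GC box GGGCGG was found in 9 of the 10 windows and in 45.0% of all windows. The sterol regulatory element as spelled TCACNCCAC was in 0 of the 10 windows and in 1.1% of all windows. A match or its absence describes the searched windows of 300 bases alone, of which stretches of 140 are printed. The GC boxes counted for MVD and FDPS lie outside their printed stretches.

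All 12 probes of the 8 genes were well above background on all 9 arrays. Where a gene had several probes, the one with the highest mean signal stands for it and the others are given beside it. Levels of different probes are not set against each other, since probes differ in how well they bind.

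**Figure D1:**
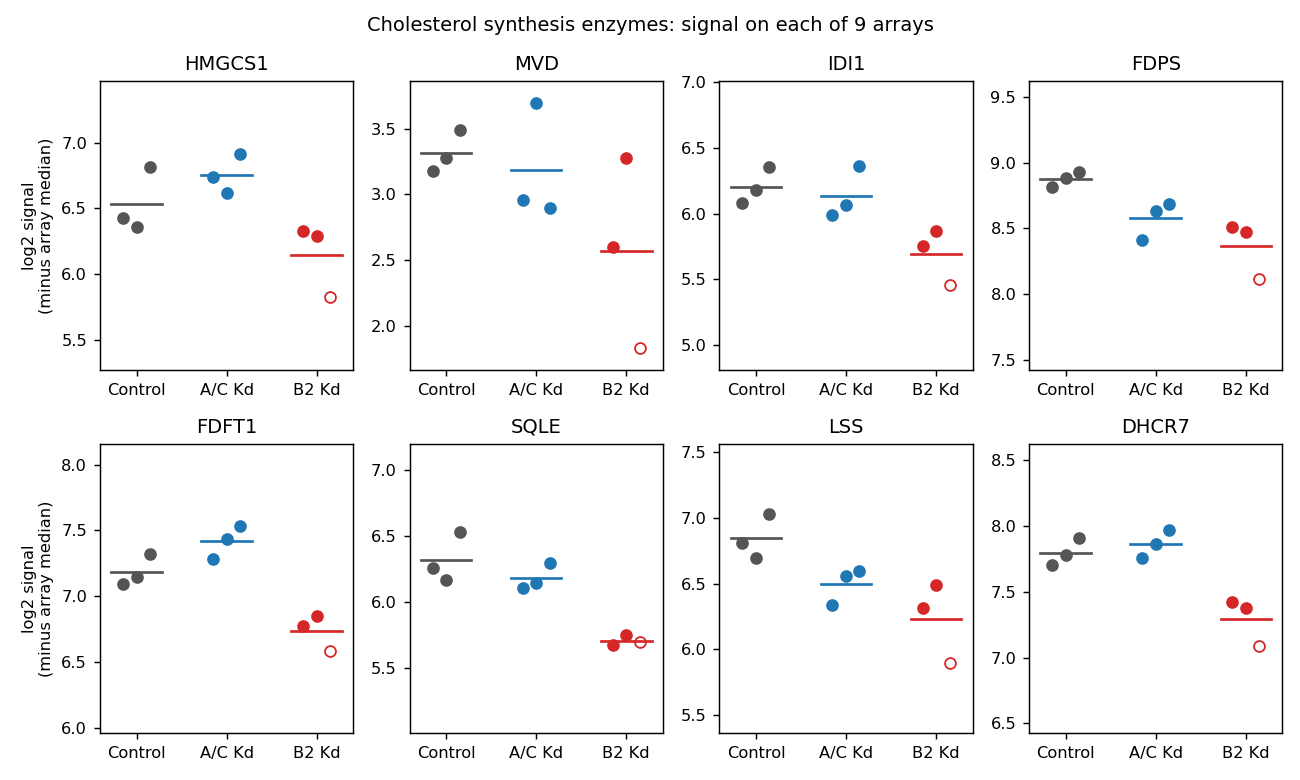
The vertical axis gives log2 signal minus the array median for each of the 8 genes, at the probe that stands for it, on each of the 9 arrays, and each panel spans the same height. Filled points are arrays of the first slide, the open point is the Lamin B2 Kd array of the second slide, and short lines are group means. In every panel the mean of Lamin B2 Kd is the lowest of the 3, and in all but the MVD panel every Lamin B2 Kd point lies below every control point.

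HMGCS1, the synthase that joins acetyl-CoA and acetoacetyl-CoA to make HMG-CoA, stands at the entrance of the route. Its signal was 6.42, 6.35 and 6.81 in Control, 6.74, 6.62 and 6.91 in Lamin A/C Kd, and 6.33, 6.29 and 5.82 in Lamin B2 Kd. All 3 Lamin B2 Kd arrays lay below all controls and all Lamin A/C Kd arrays, while Lamin A/C Kd and Control overlapped. The log2 difference from Control was 0.23 (SE 0.18) in Lamin A/C Kd and -0.38 (SE 0.18) in Lamin B2 Kd, and Lamin A/C Kd exceeded Lamin B2 Kd by 0.61 (SE 0.18). Without the array on the second slide the last 2 became -0.22 and 0.45. The dimmer HMGCS1 probe read 3.74, 3.85 and 4.03 in Control, 3.69, 3.50 and 3.35 in Lamin A/C Kd, and 3.36, 3.30 and 2.11 in Lamin B2 Kd. On it both knockdowns lay below every control, with differences of -0.36 (SE 0.30) and -0.95 (SE 0.30). The sign of the Lamin A/C Kd difference was therefore not shared by the probes, which correlated at Pearson's r = 0.72 across the 9 arrays. On the dimmer probe the Lamin B2 Kd difference was -0.54 without the second-slide array, and that between knockdowns went from 0.60 to 0.19.

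MVD, the decarboxylase that turns mevalonate diphosphate into isopentenyl diphosphate, had the widest spread of the 8. The signal was 3.18, 3.27 and 3.49 in Control, 2.95, 3.69 and 2.90 in Lamin A/C Kd, and 2.60, 3.28 and 1.83 in Lamin B2 Kd. No pair of groups was separate, since the second array of each knockdown stood above the other 2 of its group. Differences were -0.13 (SE 0.34) for Lamin A/C Kd and -0.75 (SE 0.34) for Lamin B2 Kd against Control, and 0.61 (SE 0.34) for Lamin A/C Kd versus Lamin B2 Kd. The array on the second slide was the lowest of all 9, and without it the Lamin B2 Kd difference was -0.38 and that between knockdowns 0.24.

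IDI1 interconverts isopentenyl and dimethylallyl diphosphate, the building blocks of every isoprenoid. Signals of 6.08, 6.18 and 6.35 in Control and of 5.99, 6.06 and 6.36 in Lamin A/C Kd covered nearly the same range. Lamin B2 Kd gave 5.76, 5.87 and 5.46, below every array of both other groups. The differences were -0.07 (SE 0.16) for Lamin A/C Kd, -0.51 (SE 0.16) for Lamin B2 Kd and 0.44 (SE 0.16) between knockdowns. On the first slide alone the Lamin B2 Kd difference was -0.39 and that between knockdowns 0.32.

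FDPS makes farnesyl diphosphate, the branch point from which sterols, ubiquinone, dolichol and prenyl groups for proteins are drawn. It read 8.81, 8.88 and 8.93 in Control, 8.42, 8.63 and 8.69 in Lamin A/C Kd, and 8.51, 8.48 and 8.12 in Lamin B2 Kd. Both knockdowns lay below all 3 controls, and the knockdowns overlapped. Differences from Control were -0.30 (SE 0.14) in Lamin A/C Kd and -0.51 (SE 0.14) in Lamin B2 Kd, and that between knockdowns was 0.21 (SE 0.14). Without the second-slide array the last 2 were -0.38 and 0.09.

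FDFT1, squalene synthase, commits farnesyl diphosphate to sterols. Its values were 7.09, 7.15 and 7.32 in Control, 7.28, 7.44 and 7.54 in Lamin A/C Kd, and 6.78, 6.85 and 6.58 in Lamin B2 Kd. The Lamin A/C Kd arrays sat at or above the top of the control range, with the lowest inside it, and the Lamin B2 Kd arrays sat below every other array. The difference from Control was 0.23 (SE 0.13) for Lamin A/C Kd and -0.45 (SE 0.13) for Lamin B2 Kd. The difference between knockdowns, 0.68 (SE 0.13), had the largest size of the 8 in that comparison, and was 0.60 without the second slide.

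SQLE, the epoxidase that adds oxygen to squalene, showed the tightest Lamin B2 Kd group. Control arrays read 6.26, 6.17 and 6.53, Lamin A/C Kd arrays 6.11, 6.15 and 6.29, and Lamin B2 Kd arrays 5.67, 5.75 and 5.70. The standard deviation in Lamin B2 Kd was 0.04 (n = 3), and the array on the second slide lay between the other 2. Lamin B2 Kd was lower than Control by 34.7% (log2 difference -0.61, SE 0.13) and remained so without that array (-0.61). Lamin A/C Kd overlapped Control (-0.14, SE 0.13) and lay above every Lamin B2 Kd array (0.48, SE 0.13).

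LSS closes the epoxide of squalene into lanosterol, the first sterol. The probe standing for it read 6.81, 6.70 and 7.03 in Control, 6.34, 6.56 and 6.60 in Lamin A/C Kd, and 6.31, 6.49 and 5.90 in Lamin B2 Kd. As with FDPS, both knockdowns were below every control and overlapped each other. The differences were -0.35 (SE 0.17), -0.61 (SE 0.17) and, between knockdowns, 0.26 (SE 0.17), with -0.44 and 0.10 for the last 2 on the first slide alone. A further LSS probe ran closely with it (r = 0.95 across the 9 arrays), at 5.19, 5.40 and 5.36 in Control, 4.70, 5.01 and 4.97 in Lamin A/C Kd, and 4.81, 4.97 and 4.28 in Lamin B2 Kd. It too placed both knockdowns below every control, with log2 differences of -0.42 for Lamin A/C Kd and -0.63 for Lamin B2 Kd. Without the second-slide array the latter was -0.43, and the difference between knockdowns went from 0.21 to 0.01. The remaining 2 LSS probes were dim, between -1.29 and 0.41 over the 9 arrays, and share 40 of their 60 bases with each other. On these the Lamin A/C Kd differences were -0.50 and -0.15 and the Lamin B2 Kd differences -0.28 and -0.31 and all groups overlapped. Without the second-slide array the Lamin B2 Kd differences were -0.42 and -0.53.

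DHCR7 reduces dehydrocholesterol to cholesterol at the end of the route. Values of 7.70, 7.78 and 7.91 in Control and of 7.76, 7.86 and 7.97 in Lamin A/C Kd nearly coincided. Lamin B2 Kd arrays read 7.42, 7.38 and 7.08, below all of them. The differences were 0.07 (SE 0.13) for Lamin A/C Kd, -0.50 (SE 0.13) for Lamin B2 Kd and 0.57 (SE 0.13) between knockdowns. Leaving out the second slide gave -0.40 and 0.47 for the last 2.

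Upon Lamin B2 Kd all 8 genes were lower than in Control by their group means, by between 23.4% (HMGCS1) and 40.4% (MVD). The median log2 difference of the 8 was -0.51, and that of all 22103 genes tested was -0.14. Of all genes 33.3% had a positive difference. Every Lamin B2 Kd array lay below every control for 7 of the 8 genes, all but MVD, and for 27.2% of all genes. At an adjusted p under 0.05 SQLE alone was called lower, and 3.92% of all genes were called lower. No gene of the 8 reached 2-fold, the limit set in the study's methods, which 2.03% of all genes passed together with an unadjusted p under 0.05. Without the array on the second slide the median of the 8 was -0.39, that of all genes -0.06, and 1 gene, SQLE, was called, beside 4.70% of all genes called in either direction. SQLE was called in 2 of the 9 fits without 1 array and under 6 of the 13 other alternatives. Since the 8 were chosen with this comparison known, nothing is read from these counts.

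Upon Lamin A/C Kd the 8 genes did not share a direction. HMGCS1, FDFT1 and DHCR7 had positive differences from Control and the other 5 negative ones, 4 being negative with the shift by the 75th percentile or quantile normalization and 6 with normexp or the mean over a gene's probes. The 5 negative and 3 positive values had a median of -0.10 beside -0.04 for all 21846 genes tested, of which 44.5% had a positive difference. Groups were separate for FDPS and LSS, both below Control, as for 25.2% of all genes. None of the 8 was called at an adjusted p under 0.05 or at an unadjusted p under 0.05 by limma, where 8.94% of all genes passed the adjusted threshold in either direction and 23.2% the unadjusted one. While the fit of all 9 arrays called 1953 of all genes, that without the second-slide array called 4571. None of the 8 was called in the latter at its standing probe. There the further LSS probe was called lower (-0.42, SE 0.11). In that fit 2 of the 8 were lower at an unadjusted p under 0.05. No share of all genes was counted there, and in the fit of all 9 arrays 14.7% were lower by that rule. FDPS was called with the normexp background correction and with array weights, and FDFT1 with the shift by the 75th percentile and with quantile normalization. Of the 176 values that the 8 differences took under the alternatives, 7 had the opposite sign. Many of the 176 could not change sign. The detection filters, replicate and slide blocks, intensity trend and 2-fold rule leave these differences as they were. So do restriction to the groups compared and leaving out a Lamin B2 Kd array. Nothing is read from these counts either.

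Set against each other, the knockdowns differed in the same direction for all 8 genes, Lamin A/C Kd being higher by between 1.16-fold (FDPS) and 1.60-fold (FDFT1). The median log2 difference was 0.52, and that of all 21829 genes tested was 0.05. Of all genes 55.5% had a positive difference. Groups did not overlap for HMGCS1, IDI1, FDFT1, SQLE and DHCR7, as for 21.9% of all genes with Lamin A/C Kd above Lamin B2 Kd. HMGCS1, FDFT1, SQLE and DHCR7 were called higher at an adjusted p under 0.05, beside 11.2% of all genes. Without the array on the second slide FDFT1, SQLE and DHCR7 were called, beside 11.0% of all genes, and the median was 0.39. Between 1 and 3 of the 8 were called in the 9 fits without 1 array. As the 8 were chosen on this comparison too, nothing is read from the counts. The 2 comparisons with Control share their control arrays, and this one shares its arrays with both.

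**Figure D2:**
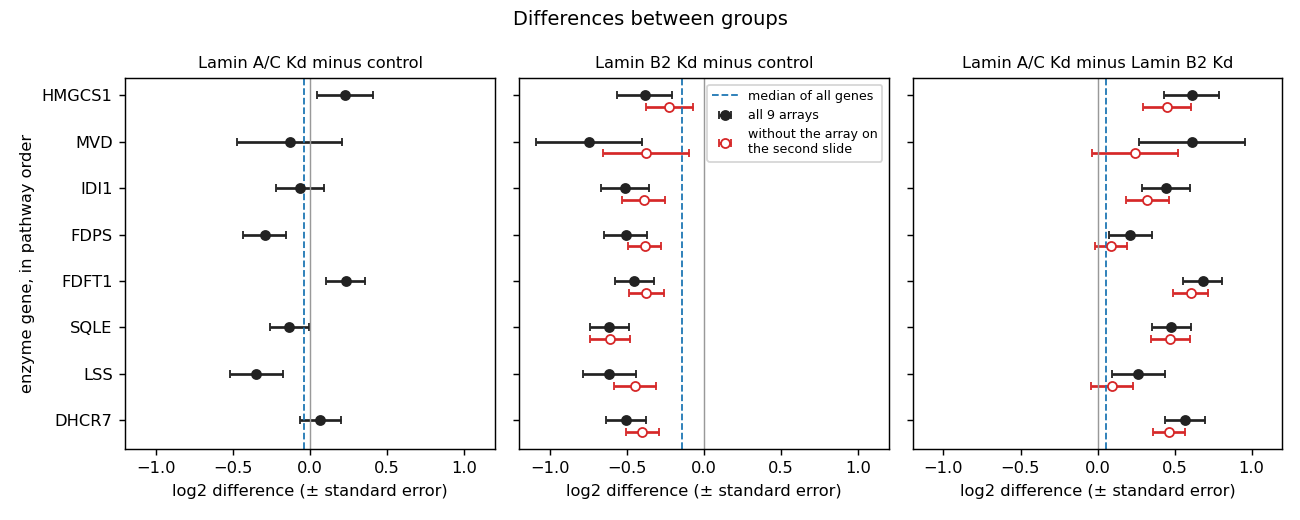
The horizontal axis gives the log2 difference with its standard error for the 8 genes in pathway order, in the 3 comparisons. Black points use all 9 arrays, open red points leave out the Lamin B2 Kd array on the second slide, and the dashed line is the median of all genes tested. All 8 points lie left of 0 in Lamin B2 Kd minus Control and right of 0 in Lamin A/C Kd minus Lamin B2 Kd, with and without that array, and on both sides of 0 in Lamin A/C Kd minus Control.

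The scaling of the arrays moved the level of all genes. The median log2 difference of all genes between Lamin B2 Kd and Control was -0.14 after the shift by the array median and 0.06 after a shift by the 75th percentile, and the share of called genes that were lower was 89.5% in the former and 62.1% in the latter. It was 73.8% after quantile normalization. For Lamin A/C Kd against Control that share was 64.7%, 50.9% and 48.9% by the same 3 scalings and 78.0% with normexp, and for Lamin A/C Kd versus Lamin B2 Kd it was 28.8%, 48.3% and 39.9%. A shift moves all genes of an array alike, so values relative to the median of all genes could not differ between the shifts. On that scale the median of the 8 was -0.37 in Lamin B2 Kd against Control by either shift and -0.29 by quantile normalization. In Lamin A/C Kd versus Lamin B2 Kd it was 0.47 by either shift and 0.44 by quantile normalization. All 8 stayed negative in the former comparison and positive in the latter under each alternative. Several alternatives leave a difference unchanged, as given below.

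The 8 genes also varied together between arrays. After subtracting each gene's mean over the 9 arrays, the mean of the 8 was 0.11, 0.13 and 0.36 in Control, 0.01, 0.19 and 0.22 in Lamin A/C Kd, and -0.26, -0.14 and -0.62 in Lamin B2 Kd. Control and Lamin A/C Kd overlapped on this summary and Lamin B2 Kd lay below both. The third control array was the highest control for every gene, and the Lamin B2 Kd array of the second slide was the lowest Lamin B2 Kd array for every gene but SQLE. Over the 28 pairs of genes, Pearson's r across the 9 arrays ran from 0.60 (HMGCS1 and FDPS) to 0.97 (FDFT1 and DHCR7), with a median of 0.81. After removing group means the median was 0.80, and without the second slide, with groups kept, it was 0.72, with the lowest pair, HMGCS1 and MVD, at 0.10. These arrays share their slide, their scaling and their groups, so the values are a description.

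**Figure D3:**
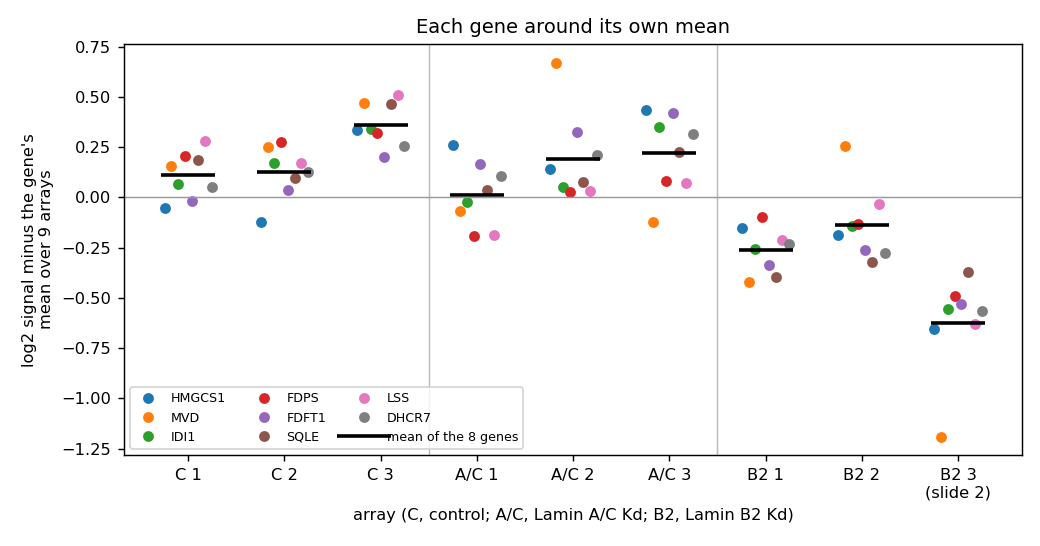
Each colored point is the log2 signal of a gene minus its mean over the 9 arrays, with arrays along the horizontal axis and genes side by side within an array. Black bars are the mean of the 8 genes. The bars lie between 0.01 and 0.36 on the 6 Control and Lamin A/C Kd arrays and between -0.62 and -0.14 on the Lamin B2 Kd arrays, and MVD strays furthest from the bar on the second array of each knockdown and on the third of Lamin B2 Kd.

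Of 20207 further genes well above background on all 9 arrays, the 10 whose signal ran most like the mean of the 8 had an r between 0.98 and 0.99 across the arrays. They were, by the names in the files, DEPDC5, FLJ20920, CC2D1B, TH1L, LOC441964, HsapiCR598168, MAEA, C9orf21, TXNRD3 and MGAT4B. No other enzyme of the route was among them. The nearest, HSD17B7, ranked 134 at r = 0.96, followed by ACAT2 at 0.96 and NSDHL at 0.94, while LBR stood at -0.06 and MSMO1 at 0.04.

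Further enzymes of the route were listed, and 12 that are reported here were all measured. In Lamin B2 Kd 11 of the 12 had negative differences from Control, all but MSMO1, and 9 of the 12 after the 75th percentile or quantile scaling, where LBR and CYP51A1 turned positive too. The 12 had a median of -0.42 beside -0.14 for all genes, of which 33.3% had a positive difference. None was called by limma at an adjusted p under 0.05, and 8 were lower at an unadjusted p under 0.05, as were 20.1% of all genes. Without the array on the second slide 1 of the 12, TM7SF2, was called lower. In Lamin A/C Kd 2 were called higher and 1 lower, with a median of 0.12 beside -0.04, where 3.15% of all genes were called higher and 5.79% lower. Between knockdowns 6 were called higher in Lamin A/C Kd and none lower, beside 11.2% of all genes called higher and 4.53% lower, with a median of 0.54 beside 0.05.

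TM7SF2, a sterol reductase acting soon after lanosterol, rose in Lamin A/C Kd and had a negative difference from Control in Lamin B2 Kd. It read 6.86, 6.83 and 7.08 in Control, 7.91, 7.96 and 7.88 in Lamin A/C Kd, and 6.29, 6.33 and 5.34 in Lamin B2 Kd. The 3 groups were separate. Lamin A/C Kd was 1.99-fold higher than Control (log2 difference 0.99, SE 0.24; limma adjusted p = 0.0345), and Lamin B2 Kd differed from Control by -0.94 (SE 0.24; adjusted p = 0.0634), or by -0.61 without the second slide, where it was called (adjusted p = 0.0218). Lamin A/C Kd exceeded Lamin B2 Kd 3.81-fold (adjusted p = 0.00145), a call kept without any 1 array in turn. The Lamin A/C Kd call against Control was lost without any 1 of the 3 controls or of the 3 Lamin A/C Kd arrays, and with the authors' table, no detection filter, the replicate block or the 2-fold rule. LBR, the inner nuclear membrane protein that binds B-type lamins and carries the same reductase activity, differed from Control by -0.33 (SE 0.11; adjusted p = 0.106) in Lamin A/C Kd and by -0.06 (SE 0.11; adjusted p = 0.77) in Lamin B2 Kd. In the fit without the second slide its Lamin A/C Kd difference, of the same size, was called (adjusted p = 0.042).

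CYP51A1, the demethylase of lanosterol, rose in Lamin A/C Kd. Its values were 5.15, 5.01 and 5.19 in Control, 5.62, 5.68 and 5.89 in Lamin A/C Kd, and 5.18, 4.93 and 5.09 in Lamin B2 Kd, so that Control and Lamin B2 Kd overlapped and Lamin A/C Kd lay above both. The differences were 0.61 (SE 0.12; adjusted p = 0.018) for Lamin A/C Kd and -0.05 (SE 0.12; adjusted p = 0.817) for Lamin B2 Kd, and the knockdowns differed by 0.66 (adjusted p = 0.0084). PMVK, the kinase just before MVD, fell in Lamin A/C Kd, from 4.42, 4.55 and 4.55 in Control to 3.50, 3.67 and 3.45 (log2 difference -0.97, SE 0.19; adjusted p = 0.0154). It read 4.18, 4.11 and 3.44 in Lamin B2 Kd (-0.60, SE 0.19; adjusted p = 0.11), and without the last of these arrays that difference was -0.36 and PMVK was called lower in Lamin A/C Kd than in Lamin B2 Kd (-0.61, adjusted p = 0.0063). The Lamin A/C Kd calls for CYP51A1 and PMVK were lost without any 1 of the controls and without the third Lamin A/C Kd array, and also without the second of that group for CYP51A1 and without the first for PMVK. The authors' table and no detection filter also ended the CYP51A1 call, and the 2-fold rule ended both. A dimmer CYP51A1 probe gave 0.27 (adjusted p = 0.18) in Lamin A/C Kd.

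For 4 more enzymes of the list calls were made between the knockdowns and not against Control. SC5D, a desaturase near the end of the route, was 2.14-fold higher in Lamin A/C Kd than in Lamin B2 Kd (log2 difference 1.09, SE 0.15; adjusted p = 0.00221), a call kept without any 1 array. Its values were 5.15, 5.22 and 5.45 in Control, 5.78, 5.81 and 5.77 in Lamin A/C Kd and 4.71, 4.95 and 4.42 in Lamin B2 Kd, with every group separate from the next. Without the second slide SC5D was called higher than Control in Lamin A/C Kd too (0.52, adjusted p = 0.0137). MVK, the first mevalonate kinase, differed between knockdowns by 0.97 (adjusted p = 0.019), HSD17B7 by 0.60 (adjusted p = 0.0449) and the acetoacetyl-CoA thiolase ACAT2 by 0.54 (adjusted p = 0.0477). The MVK call was lost without any 1 Lamin A/C Kd array. The ACAT2 call was lost without any 1 array other than the second of Lamin B2 Kd, and the HSD17B7 call without any 1 control, the second or the third Lamin A/C Kd array, or the first or the third Lamin B2 Kd array. No detection filter, only the groups compared and the 2-fold rule ended each of these 3 calls, and the authors' table, the replicate block and array weights ended those of ACAT2 and HSD17B7. The ACAT2 call was also lost with the slide as a block and with averaged probes. MSMO1, a sterol oxidase, had the largest difference of the list in Lamin A/C Kd against Control, 1.03 (SE 0.34; adjusted p = 0.0925), with the second control array at 0.29 beside 1.54 and 1.83 in the other 2.

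The list of genes that sense sterols and release SREBP held 7. INSIG1, the anchor that keeps SREBP in the endoplasmic reticulum and is itself an SREBP target, fell in Lamin B2 Kd. It read 3.78, 4.02 and 4.17 in Control, 4.12, 4.02 and 4.25 in Lamin A/C Kd, and 3.32, 3.22 and 2.93 in Lamin B2 Kd, where every array lay below all others. The difference from Control was -0.83 (SE 0.15; adjusted p = 0.0241), or -0.72 without the second slide, and that between knockdowns 0.97 (SE 0.15; adjusted p = 0.00368). The first of these calls was lost without any 1 control or without the first Lamin A/C Kd array, and the second was kept without any 1 array. The first was lost as well with the authors' table, no detection filter, the replicate block or only the groups compared, and the 2-fold rule ended both. MBTPS1, the protease that makes the first cut in SREBP, fell in Lamin A/C Kd, from 5.25, 5.04 and 5.43 to 4.01, 4.19 and 4.39, to 48.6% of Control (-1.04, SE 0.14; adjusted p = 0.00438), a call kept without any 1 array. In Lamin B2 Kd it read 4.60, 4.63 and 4.71 (-0.59, SE 0.14; adjusted p = 0.0525). SREBF1 differed from Control by -0.78 (SE 0.19; adjusted p = 0.0526) in Lamin B2 Kd, or by -0.56 without the second slide, where it was called (adjusted p = 0.0377), and by -0.22 (SE 0.19; adjusted p = 0.543) in Lamin A/C Kd. For SREBF2 the differences were -0.49 (SE 0.21; adjusted p = 0.192) and -0.10 (SE 0.21; adjusted p = 0.834), and for the escort protein SCAP -0.66 (SE 0.20; adjusted p = 0.105) and -0.22 (SE 0.20; adjusted p = 0.591), in the same order, with Lamin B2 Kd differences of -0.27 and -0.43 for SREBF2 and SCAP without the second slide. All 7 genes had negative differences in Lamin B2 Kd, and 6 after the 75th percentile or quantile scaling, with the slide as a block or array weights, without the third control or without the array on the second slide, where INSIG2 turned positive. They had a median of -0.59 beside -0.14 for all genes, of which 33.3% had a positive difference. Of the 7, 1 was called lower, or 2 without the second slide, beside 3.92% of all genes. In Lamin A/C Kd 1 of the 7 was called lower, beside 5.79% of all genes, with a median of -0.10.

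**Figure D4:**
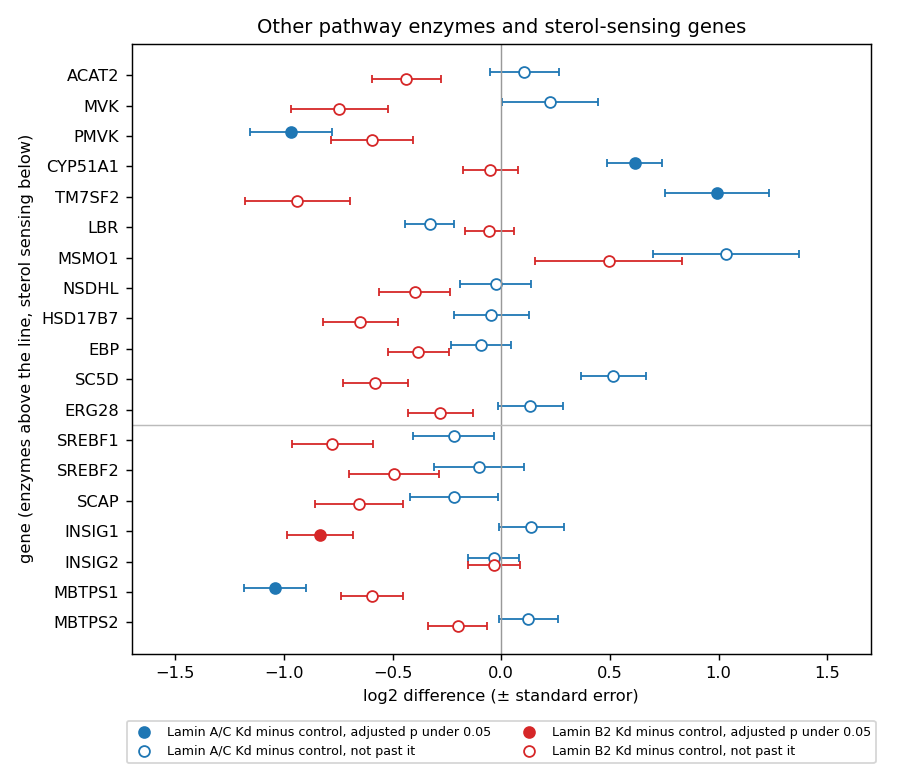
Points are log2 differences from Control with standard errors, blue for Lamin A/C Kd and red for Lamin B2 Kd, for 12 further enzymes (above the line) and 7 sterol-sensing genes (below it). Filled points passed an adjusted p under 0.05. TM7SF2 lies at 0.99 in blue and at -0.94 in red, PMVK and MBTPS1 are filled on the left in Lamin A/C Kd, and INSIG1 is the only filled point of Lamin B2 Kd.

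Enzymes of the isoprenoid branches, most of which serve products other than sterols, were listed too. Of these 13, 12 were tested, and IDI2 was too dim. In either knockdown none was called against Control by limma, with 1 lower in Lamin A/C Kd and 3 lower in Lamin B2 Kd at an unadjusted p under 0.05, beside 14.7% and 20.1% of all genes. The medians were -0.18 and -0.19, beside -0.04 and -0.14 for all genes. The largest difference in Lamin B2 Kd was that of COQ2 of ubiquinone synthesis, -0.51 (SE 0.13; adjusted p = 0.0569), which at -0.29 (SE 0.13; adjusted p = 0.191) was also the largest in Lamin A/C Kd and was called there without the second slide (adjusted p = 0.0397). Between knockdowns GGPS1, which makes geranylgeranyl diphosphate, was higher in Lamin A/C Kd by 0.58 (SE 0.15; adjusted p = 0.0312) and PDSS2, of the ubiquinone side chain, by 0.75 (SE 0.17; adjusted p = 0.0164). The GGPS1 call was lost without any 1 control, the second or the third Lamin A/C Kd array or the first Lamin B2 Kd array, and the PDSS2 call without the third Lamin A/C Kd array. Only the groups compared and the 2-fold rule ended both calls, and the authors' table, no detection filter, the replicate block and array weights that of GGPS1. The subunits of farnesyltransferase, which prenylates lamins, differed from Control by 0.04 and -0.22 (FNTA and FNTB) in Lamin A/C Kd and by -0.21 and -0.08 in Lamin B2 Kd, none of them called.

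Among 11 genes of cholesterol uptake, storage, transport and efflux, SOAT1 fell in Lamin B2 Kd. This enzyme esterifies cholesterol for storage, and it read 3.43, 3.42 and 3.35 in Control, 2.88, 3.07 and 3.16 in Lamin A/C Kd, and 2.74, 2.95 and 2.61 in Lamin B2 Kd. Both knockdowns lay below every control, by 0.63 (SE 0.13; adjusted p = 0.0346) in Lamin B2 Kd and by 0.36 (SE 0.13; adjusted p = 0.118) in Lamin A/C Kd on the log2 scale. The Lamin B2 Kd call was lost without any 1 control, any 1 Lamin A/C Kd array or the first Lamin B2 Kd array, and with the authors' table, no detection filter, the replicate block, only the groups compared, averaged probes (-0.35) or the 2-fold rule. The other 2 SOAT1 probes gave -0.38 (adjusted p = 0.499) and -0.04 (adjusted p = 0.881) in Lamin B2 Kd, and the latter was lower in Lamin A/C Kd than in Lamin B2 Kd (-0.52, adjusted p = 0.0486), against the sign of the probe standing for the gene (0.27, adjusted p = 0.192). Without the second slide SOAT1 was called in both knockdowns (adjusted p = 0.0421 for Lamin A/C Kd, 0.0414 for Lamin B2 Kd). Between knockdowns STARD4, a cytosolic sterol carrier, differed by 0.69 (SE 0.13; adjusted p = 0.00727) and MYLIP, a ubiquitin ligase acting on lipoprotein receptors, by 0.93 (SE 0.19; adjusted p = 0.0108), both higher in Lamin A/C Kd and both called without any 1 array and under all other alternatives but the 2-fold rule. MYLIP was also called higher in Lamin A/C Kd than in Control without the second slide (0.35, adjusted p = 0.0434). NR1H3, the sterol-activated nuclear receptor LXR alpha, differed from Control by -0.79 (SE 0.20; adjusted p = 0.058) in Lamin B2 Kd and by -0.44 (SE 0.19; adjusted p = 0.212) in Lamin A/C Kd. Without the second slide both were called (-0.53, adjusted p = 0.0201, and -0.44, adjusted p = 0.00775). SOAT2 was well above background on 1 control array, on none of Lamin A/C Kd and on all 3 of Lamin B2 Kd, and it was not called (adjusted p = 0.179 against Control and 0.0755 between knockdowns) unless the second slide was left out, when it was called higher in Lamin B2 Kd than in Lamin A/C Kd (adjusted p = 0.0465). ABCA1 was too dim to test.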

How the data were processed

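RNA was measured on single-color Agilent arrays, 9 in all. For every array the authors deposited scanner output of Feature Extraction, with a background-subtracted intensity per spot (version 10.5 per the submitters' notes, 10.7.3.1 per the file headers). A further deposited table gives log2 values after a 50th percentile shift and served as an alternative.

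Here the log2 intensity minus the array median was averaged over a probe's spots without outliers. Tests took in probes detected well above background by every array of either group compared. Groups were compared with limma 3.58.1 (R 4.3.3) in 1 fit over all 9 arrays, with Benjamini-Hochberg adjustment over all probes tested. The brightest probe stood for a gene. The self-tests used simulated data. Precision is limited by having 3 arrays per group.

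The 8 genes and all lists were chosen with earlier results of these data known. Besides the 8 genes and the lamins, the rule named the list genes with an adjusted p under 0.05 in any comparison or the largest difference of their list, and the 10 genes running most like the 8. Others in the text were chosen after their values were seen. Of the listed genes, 4 are not reported here. Array numbers of the Lamin B2 Kd group differ between the table and the titles, and the titles were used. The alternatives were other scalings, background correction, detection filters, blocks by replicate number or slide, only the groups compared, array weights, an intensity trend, averaged probes, the 2-fold rule and leaving out each array.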

Additional observations from a re-analysis of the deposited data

How the results depend on the processing

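All 8 differences stayed negative in Lamin B2 Kd against Control and positive in Lamin A/C Kd versus Lamin B2 Kd under each of the 22 alternatives. The detection filters, replicate block, intensity trend, 2-fold rule and restriction to the groups compared do not change a difference. Nor does leaving out an array of the third group, so these signs were fixed in advance. The median of the 8 in Lamin B2 Kd moved by more than its spread between arrays with the shift by the 75th percentile (-0.31) and quantile normalization (-0.29), and lay between -0.58 and -0.39 without 1 array. The cause of the changes in counts given here was not tested. In Lamin A/C Kd against Control 0 of the 8 were called, and 1 with either of these scalings, with normexp and with array weights.

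In Lamin B2 Kd against Control 1 of the 8 was called, between 0 and 2 without 1 array, 5 with normexp or an intensity trend, and 0 with either scaling, with the authors' table, no detection filter, the replicate block, only the groups compared or the 2-fold rule. It was 0 without any 1 control, any 1 Lamin A/C Kd array or the first Lamin B2 Kd array, and 2 without the second Lamin B2 Kd array. Between knockdowns 4 were called, between 1 and 3 without 1 array (1 without the second or the third Lamin A/C Kd array, 2 without the first control, the first Lamin A/C Kd or the first or second Lamin B2 Kd array, 3 otherwise), 2 with the authors' table, no filter or array weights, 1 with the replicate block or only the groups compared, and 0 by the 2-fold rule.

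Calls among the other listed genes numbered 4 in Lamin A/C Kd against Control, between 1 and 10 without 1 array, 9 with normexp, 7 with the slide block or only the groups compared, 10 with array weights, and 2 with the authors' table, no filter or the 2-fold rule. In Lamin B2 Kd against Control 2 were called, between 0 and 7 without 1 array, 4 with either scaling, 16 with normexp, 8 with detection on all 9 arrays, 7 with the slide block, 5 with array weights, 10 with the intensity trend, 1 by the 2-fold rule, and 0 with the authors' table, no filter, the replicate block or only the groups compared. Between knockdowns 11 were called, between 6 and 12 without 1 array, 18 and 17 with the 75th percentile and quantile normalization, 7 with no filter, 6 with only the groups compared and 3 by the 2-fold rule.

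Over all genes, calls in Lamin A/C Kd against Control numbered 1953, between 603 and 4571 without 1 array, 3316 with the 75th percentile, 3117 with quantile normalization, 3548 with normexp, 1216 with the authors' table, 905 with no filter, 1014 with the replicate block, 3724 with the slide block, 4402 with only the groups compared, 5505 with array weights and 482 by the 2-fold rule. In Lamin B2 Kd against Control 968 were called, between 36 and 1440 without 1 array, 2309 with normexp, 307 with the authors' table, 205 with no filter, 184 with the replicate block, 10 with only the groups compared, 1606 with the intensity trend and 448 by the 2-fold rule. Between knockdowns 3432 were called, between 1900 and 4224 without 1 array, 2143 with no filter, 1722 with only the groups compared and 914 by the 2-fold rule.

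The replicate numbers did not pair the arrays: of 9 correlations between same-numbered arrays, after removing group means, 1 was above 0.1, and 3 of 9 arrays correlated best with their own number. Fits without an array assume that the spread of the 2 left in its group equals that elsewhere. With 3 arrays a group and SEs of 0.13 to 0.34 for the 8 genes, differences of the size of most of those from Control in Lamin A/C Kd could not be told from 0.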
